A study of Mus musculus with 4 samples.

Results

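The collagen genes are all genes on the arrays whose symbol is Col, a number, the letter a and a number, taken from probe sets that the platform annotation gives 1 symbol. There are 42 of them among 18193 genes, read by 82 of 45037 probe sets, and they fall into 11 fibrillar genes, 8 basement membrane genes and 23 genes of other types. RNA was hybridised from heart and from muscle of d/d mice and from heart and muscle of f/f mice, 1 array each, 4 arrays in all. Both genotypes carry floxed alleles of the MnSOD gene (Sod2), whose product removes superoxide in mitochondria; in d/d mice the labels give these alleles as deleted by an MCK-Cre transgene that is expressed in muscle tissues, and the f/f mice served as controls. The age and sex of the mice, the muscle taken and whether a sample pools animals are not stated in the labels, which also do not say whether heart and muscle came from the same animal. With 1 array per group no difference has a replicate check, no p-value is given, and every difference describes a pair of arrays.

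Collagens are proteins with long triple-helical stretches, each built from 3 alpha chains. Fibrillar collagens pack side by side into the cables that carry tension in tendon and in the connective tissue around muscle fibres and heart muscle cells, type IV collagens form the sheet-like net of basement membranes, and the other types link, coat or anchor these structures. In heart and skeletal muscle fibroblasts make most of the fibrillar collagen, and a muscle creatine kinase promoter is known to be active in the striated muscle cells themselves.

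Values are signals in arbitrary units, scaled so that the arrays share a 2% trimmed mean. A signal under 7.51, the floor, was treated as not distinguishable from background. Where a gene has several probe sets, the one with the brightest mean log2 signal represents it. A gene counted as measured in a comparison when at least 1 of the 2 arrays was above the floor, and the differences counted are those of at least 2-fold. A fold whose smaller signal was under the floor is a minimum and is written "at least". Probe sets of a single gene differed in their log2 difference by an SD, over all genes with several, of 0.388 for the heart comparison and 0.40 for the muscle comparison. It measures disagreement between probes and not variation between animals. Levels of different genes are not set against each other, since probe sets differ in brightness.

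Promoter sequence, taken upstream of the annotated start of the gene named, is shown for 5 genes. Col8a1 and Col8a2 encode chains of type VIII collagen and differed most in heart among the collagen genes above the floor on both heart arrays. Col1a2 and Col3a1 are of the main fibrillar types, and Col4a2 shares its promoter with Col4a1. The annotated 5′ ends of Col4a1 and Col4a2 overlap, so the Col4a2 window printed here lies within the Col4a1 gene. Each line holds the 250 bases before the annotated transcript start in RefSeq on build GRCm38.p6, read 5′ to 3′ on the strand of the gene. The positions are chr16:57754738-57754987 on the minus strand for Col8a1, and on the plus strand chr4:126286544-126286793 for Col8a2, chr6:4505368-4505617 for Col1a2, chr1:45311288-45311537 for Col3a1 and chr8:11312555-11312804 for Col4a2. Capitals mark every match on either strand to TATAA (the letters of the TATA box), to CCAAT (the CCAAT box) and to GGGCGG (the GC box).
Col8a1: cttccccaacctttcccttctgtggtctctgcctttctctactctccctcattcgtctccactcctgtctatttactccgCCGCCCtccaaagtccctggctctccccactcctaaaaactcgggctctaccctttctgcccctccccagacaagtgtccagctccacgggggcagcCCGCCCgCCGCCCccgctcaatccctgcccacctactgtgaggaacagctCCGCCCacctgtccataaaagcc
Col8a2: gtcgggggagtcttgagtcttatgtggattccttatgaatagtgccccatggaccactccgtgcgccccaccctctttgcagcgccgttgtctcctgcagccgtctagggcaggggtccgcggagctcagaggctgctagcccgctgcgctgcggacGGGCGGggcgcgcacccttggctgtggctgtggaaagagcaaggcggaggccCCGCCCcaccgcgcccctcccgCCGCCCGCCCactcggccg
Col1a2: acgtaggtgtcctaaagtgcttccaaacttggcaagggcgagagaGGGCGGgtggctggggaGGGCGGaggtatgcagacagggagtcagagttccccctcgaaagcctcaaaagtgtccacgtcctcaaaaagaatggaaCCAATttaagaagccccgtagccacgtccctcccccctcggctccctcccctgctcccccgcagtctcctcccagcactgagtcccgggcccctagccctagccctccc
Col3a1: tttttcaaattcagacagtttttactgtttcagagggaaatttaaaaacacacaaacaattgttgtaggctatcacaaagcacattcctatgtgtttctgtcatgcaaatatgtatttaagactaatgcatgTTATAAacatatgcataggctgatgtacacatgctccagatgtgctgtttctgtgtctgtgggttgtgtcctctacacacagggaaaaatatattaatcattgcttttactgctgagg
Col4a2: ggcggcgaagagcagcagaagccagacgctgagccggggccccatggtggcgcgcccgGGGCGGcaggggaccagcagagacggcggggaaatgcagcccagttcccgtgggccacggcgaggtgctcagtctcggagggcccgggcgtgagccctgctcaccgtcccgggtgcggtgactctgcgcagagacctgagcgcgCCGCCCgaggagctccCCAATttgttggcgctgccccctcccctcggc

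The 5 windows do not share 1 arrangement. GGGCGG or its complement occurs 4 times in the windows of Col8a1 and Col8a2 and 2 times in those of Col1a2 and Col4a2, while the Col3a1 window holds none and carries the run TTATAA, in which TATAA reads on both strands and overlaps itself. CCAAT stands in the Col1a2 and Col4a2 windows. The promoter table held 38 windows for 35 of the 42 genes. GGGCGG was found in 22 of these 38 windows (57.9%), against 32.7% of all 32851 windows of the same length. CCAAT occurred in 13 of 38 (34.2%), against 33.8% of all windows, and TATAA in 7 of 38 (18.4%), against 22.8% of all windows. Col4a1 and Col4a2 start 21 bases apart on opposite strands of chromosome 8, with 5′ ends that overlap and upstream windows that do not. The motif counts are matches of letters in a window and say nothing about which factor binds there.

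Of the 42 genes, 24 were above the floor on all 4 arrays, 4 on 3 arrays, 3 on 2 arrays, 6 on 1 array and 5 on none. The d/d heart array gave the highest signal for 17 of the 37 genes above the floor on any array, d/d muscle for 7, f/f heart for 3 and f/f muscle for 10. By class, d/d heart was highest for 6 of the 8 basement membrane genes and for 4 fibrillar genes, and f/f muscle was highest for 5 fibrillar genes, among them both type I chains. The signals of the 42 genes summed to 10804 in d/d heart against 5207 in f/f heart, and to 3690 in d/d muscle against 6642 in f/f muscle. The sum is dominated by the brightest probe sets.

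**Figure D1:**
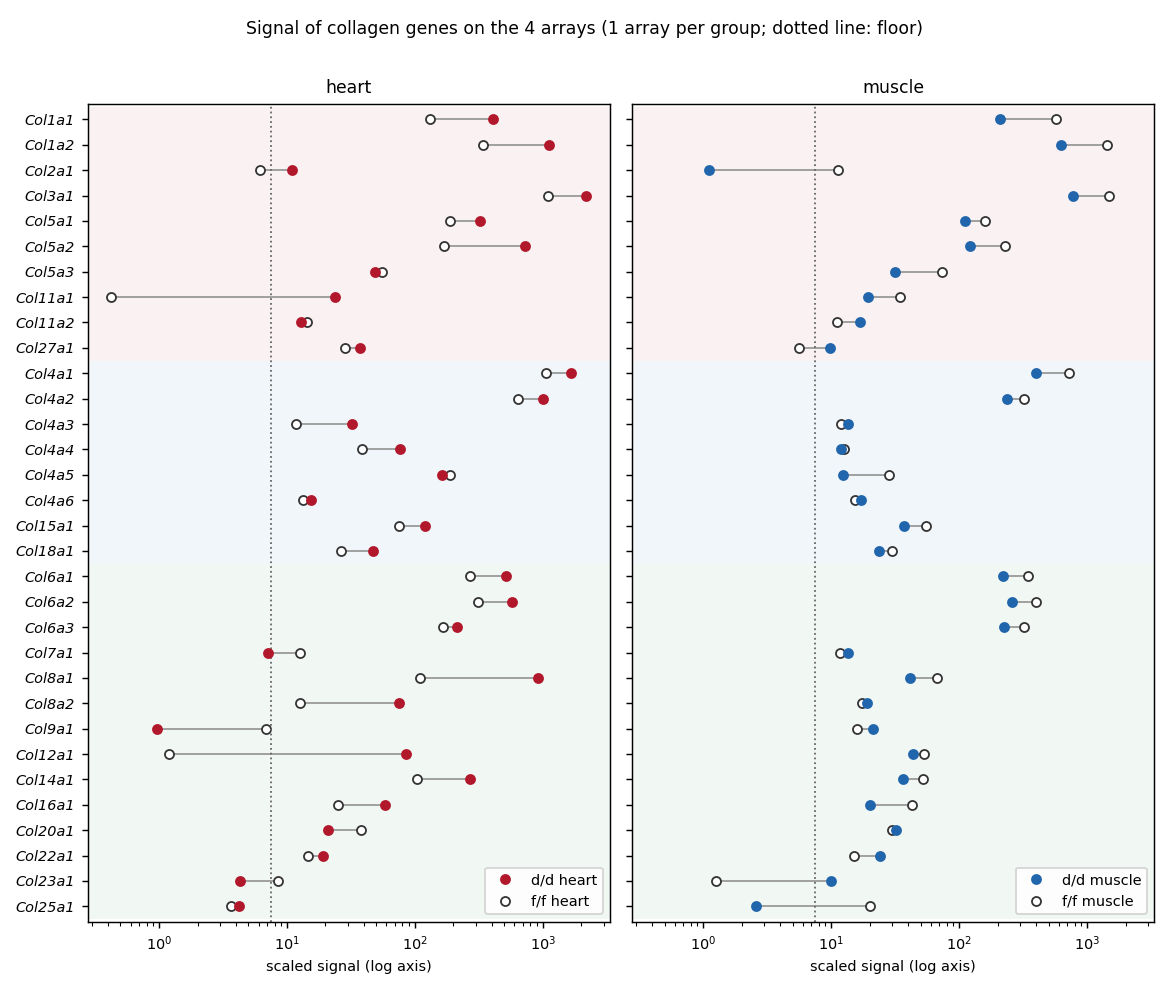
Scaled signal (log axis, arbitrary units) of the representing probe set of each of 32 collagen genes, with heart in the left panel and muscle in the right; filled points are d/d, open points f/f, the background shading marks fibrillar (top), basement membrane (middle) and other types, and the dotted line is the floor. Col8a1 stands at 922 in d/d heart, against 110 in f/f heart, and Col1a1 at 407 in d/d heart against 132 in f/f heart but at 209 in d/d muscle against 572 in f/f muscle.

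In heart, collagen transcripts were mostly higher in d/d than in f/f. Of the 31 genes measured there, 10 had at least 2-fold higher signals in d/d heart, as did 3.94% of all 13836 measured genes, and 0 were at least 2-fold lower, where 4.22% of all genes were. The 10 were Col1a1, Col1a2, Col5a2 and Col11a1 of the fibrillar type, Col4a3 of the basement membrane, and Col8a1, Col8a2, Col12a1, Col14a1 and Col16a1 of other types. The differences were above 0 for 24 genes and below 0 for 7, with a median log2 difference of 0.79, against -0.05 over all genes. The class medians were 0.89 for 10 measured fibrillar genes, 0.66 for 8 basement membrane genes and 0.89 for 13 other genes. The last ran from 0.30 with a lower floor to 1.23 with a higher one, with 0.58 for unscaled values, and leaving out probe sets that can match other transcripts gave 1.37 for the fibrillar genes and 0.38 for other types. For the 11 remaining genes the representing probe set was at the floor in both hearts, although other probe sets of Col6a4, Col9a1 and Col19a1 passed it there. A gene at the floor in f/f heart could enter only by being higher in d/d heart, and the reverse, so these medians describe the measured genes and not all 42; among the 25 genes above the floor on both heart arrays the median was 0.84, with 21 above 0. In pieces of whole tissue, a higher share of collagen-making cells and more collagen RNA per cell cannot be told apart.

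In muscle the differences ran mostly the other way. Of 36 measured genes, 6 were at least 2-fold lower in d/d muscle, where 3.25% of all 14256 measured genes were, and 0 were at least 2-fold higher, where 2.64% of all genes were. The 6 were Col1a1, Col1a2, Col5a3, Col4a5, Col16a1 and Col25a1. The differences were below 0 for 25 genes and above 0 for 11, with a median of -0.52, against -0.003 over all genes. The median was -0.84 for the 11 fibrillar genes, -0.39 for the 8 basement membrane genes and -0.51 for 17 other genes, the last -0.090 with the lower floor. Among the 28 genes above the floor on both muscle arrays it was -0.52, with 20 below 0.

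**Figure D2:**
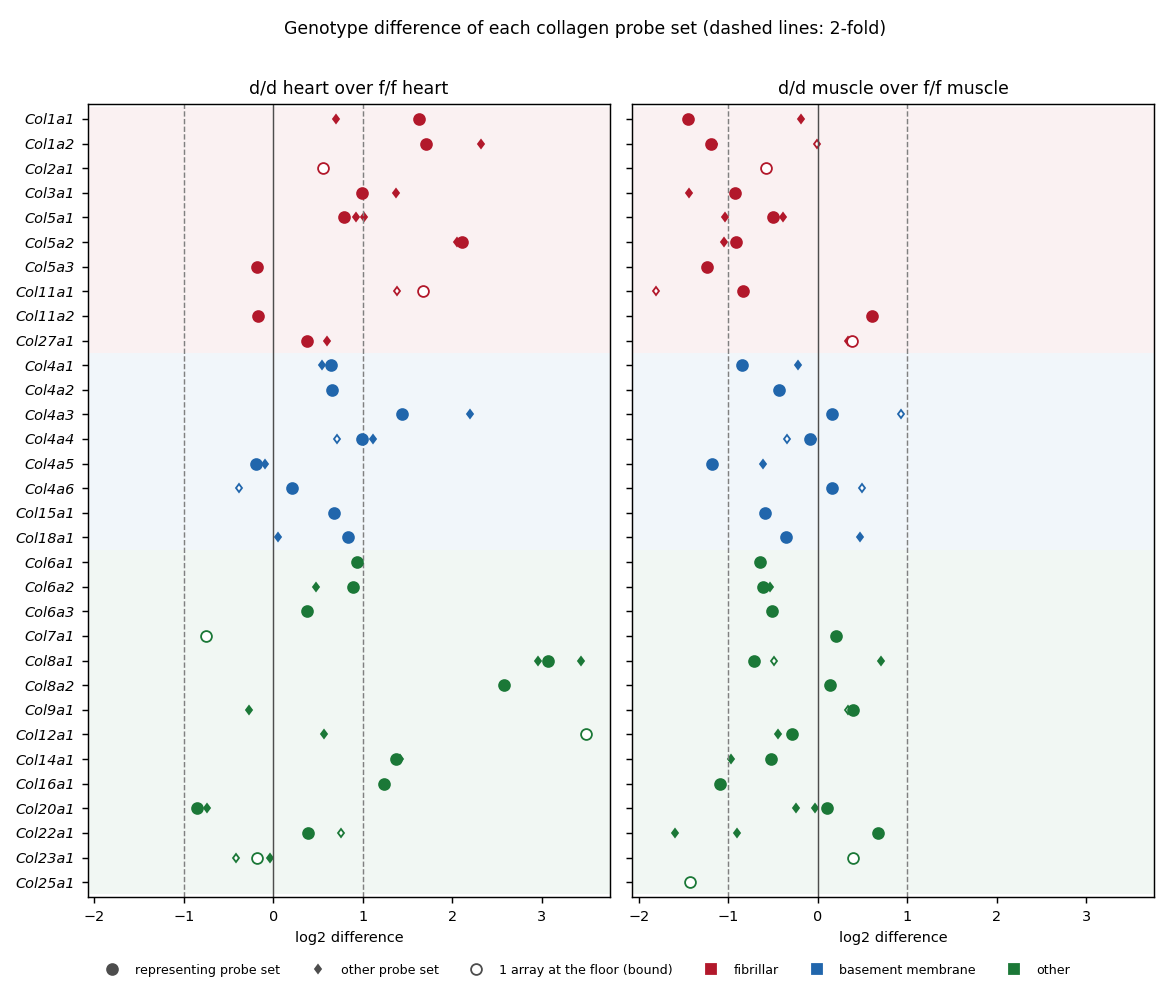
Log2 difference between d/d and f/f for the probe sets of 32 collagen genes, in heart (left) and in muscle (right); circles are representing and diamonds other probe sets, open symbols have 1 array at the floor and are bounds, and dashed lines mark 2-fold. Heart points lie mostly right of 0 and muscle points mostly left of it, and of the representing probe sets Col12a1, Col8a1, Col8a2 and Col5a2 lie farthest right in heart.

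Type I collagen, the main component of fibrous tissue, is made of chains encoded by Col1a1 and Col1a2. Col1a1 gave signals of 407 in d/d heart against 132 in f/f heart, and of 209 in d/d muscle against 572 in f/f muscle. It was 3.08-fold higher in d/d heart (log2 1.62) and 2.73-fold lower in d/d muscle (log2 -1.45). Its second probe set had the same directions with smaller sizes, at 104 in d/d heart against 64.5 in f/f heart (log2 0.69) and at 138 in d/d muscle against 156 in f/f muscle (log2 -0.18). The muscle difference of that probe set is smaller than the probe-to-probe SD. Col1a2 gave 1114 in d/d heart against 342 in f/f heart, a 3.26-fold difference, and 630 in d/d muscle against 1439 in f/f muscle, 2.28-fold lower. A second Col1a2 probe set read 592 and 119 in d/d and f/f heart (4.99-fold higher) and 416 and 930 in d/d and f/f muscle (2.24-fold lower). Another Col1a2 probe set stayed under the floor except in f/f muscle, at 7.56. Both type I genes were thus lowest in f/f heart and highest in f/f muscle.

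Type III collagen, encoded by Col3a1, is found with type I in distensible tissues. The Col3a1 signals were 2191 in d/d heart against 1105 in f/f heart, and 776 in d/d muscle against 1471 in f/f muscle. The heart difference of 1.98-fold (log2 0.99) and the muscle difference of 1.90-fold lower (log2 -0.92) both stopped just short of 2-fold, while the second probe set passed it on both sides, at log2 1.37 from 219 in d/d heart against 84.8 in f/f heart, and at -1.44 from 44.3 in d/d muscle against 120 in f/f muscle.

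Type V collagen chains, which start and limit the growth of type I fibrils, did not move alike. Col5a2 read 731 in d/d heart against 170 in f/f heart, 4.30-fold higher, and 121 in d/d muscle against 229 in f/f muscle (log2 -0.92). The second Col5a2 probe set gave close values, with log2 2.05 in heart and -1.04 in muscle. For Col5a1 the signals were 326 in d/d heart against 189 in f/f heart (log2 0.79), and 112 in d/d muscle against 158 in f/f muscle (log2 -0.50). Its other 2 probe sets gave log2 1.01 and 0.93 in heart and -0.39 and -1.04 in muscle, so all 3 had the same direction in each tissue. Col5a3 had 48.9 in d/d heart against 55.7 in f/f heart (log2 -0.19), within the probe-to-probe SD, and 31.3 in d/d muscle against 73.9 in f/f muscle, 2.36-fold lower. Of the type V genes, it was the one with no higher signal in d/d heart and the largest difference in muscle.

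The remaining fibrillar genes had signals closer to the floor. Col11a1, whose chain joins cartilage fibrils and is also made in tendon, read 23.9 in d/d heart and 0.425, below the floor, in f/f heart, which makes it at least 3.19-fold higher. In muscle it read 19.4 in d/d against 34.7 in f/f (log2 -0.84). A second probe set gave at least 2.61-fold higher in d/d heart, from 19.6 against 5.02 in f/f heart, and at least 3.51-fold lower in d/d muscle, from 5.37 against 26.3 in f/f muscle. Col11a2 differed little in heart, with 12.8 in d/d and 14.5 in f/f, and read 16.7 in d/d muscle against 11.0 in f/f muscle (log2 0.60). The cartilage collagen gene Col2a1 had 11.0 in d/d heart against 6.21 in f/f heart, and 1.10 in d/d muscle against 11.2 in f/f muscle, so it passed the floor on 1 array of each tissue, by less than 2-fold. Col27a1, a minor fibrillar collagen, stood at 37.1 in d/d heart against 28.6 in f/f heart (log2 0.38) and at 9.77 in d/d muscle against 5.61 in f/f muscle. Both hearts were above both muscles for this gene.

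Among the type IV collagens, the chains alpha-1 and alpha-2 form the net of nearly all basement membranes and are encoded side by side by Col4a1 and Col4a2. Col4a1 gave 1648 in d/d heart against 1051 in f/f heart (log2 0.65), and 398 in d/d muscle against 717 in f/f muscle (log2 -0.85). Col4a2 gave 1005 in d/d heart against 641 in f/f heart, also log2 0.65, and 238 in d/d muscle against 320 in f/f muscle (log2 -0.43). The representing probe sets of these genes had heart differences alike and below 2-fold, and muscle differences that were less alike. A second Col4a1 probe set gave log2 0.54 in heart and -0.22 in muscle.

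Chains alpha-3, alpha-4 and alpha-5 form a separate net best known from the kidney glomerulus. Col4a3 read 32.1 in d/d heart against 11.8 in f/f heart, 2.71-fold higher, and 13.4 in d/d muscle against 12.0 in f/f muscle. Its second probe set read 39.7 in d/d heart against 8.67 in f/f heart, 4.58-fold higher, and 14.3 in d/d muscle against 1.49 in f/f muscle. Col4a4 just missed 2-fold in heart, at 76.4 in d/d and 38.5 in f/f (1.98-fold higher), and level in muscle, at 11.8 in d/d and 12.6 in f/f. The next Col4a4 probe set gave 51.5 in d/d heart against 23.9 in f/f heart (log2 1.11). Col4a5 behaved otherwise, with 164 in d/d heart against 187 in f/f heart (log2 -0.19), and 12.5 in d/d muscle against 28.2 in f/f muscle, 2.26-fold lower. Its other probe set gave log2 -0.09 in heart and -0.61 in muscle. Col4a6, encoding the alpha-6 chain, lay between 13.3 and 17.2 on all 4 arrays (log2 0.20 in heart and 0.15 in muscle), and a second probe set gave -0.38 in heart, as a bound, so its heart direction depended on the probe set.

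The multiplexins Col15a1 and Col18a1 encode proteoglycan collagens of the basement membrane zone. Col15a1 gave 121 in d/d heart against 75.4 in f/f heart (log2 0.68), and 36.9 in d/d muscle against 55.6 in f/f muscle (log2 -0.59). Col18a1, whose protein is the source of endostatin, gave 47.3 in d/d heart against 26.4 in f/f heart (log2 0.84), and 23.4 in d/d muscle against 29.9 in f/f muscle (log2 -0.35). A second Col18a1 probe set, of a kind that can match other transcripts, gave 0.06 in heart and 0.47 in muscle, so the direction for Col18a1 in muscle depended on the probe set. Neither gene reached 2-fold in either tissue.

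Type VIII collagen, a short-chain collagen that builds hexagonal nets and is made by vascular and endothelial cells, had the largest heart differences of the collagen genes with both heart arrays above the floor. Col8a1 read 922 in d/d heart against 110 in f/f heart, and 41.1 in d/d muscle against 67.2 in f/f muscle. It was 8.38-fold higher in d/d heart, rank 15 of 11668 genes above the floor on both heart arrays. Its other 2 probe sets gave 458 in d/d heart against 58.9 in f/f heart (7.77-fold) and 93.1 in d/d heart against 8.59 in f/f heart (10.8-fold), so the 3 probe sets had the same direction and similar sizes. In muscle the Col8a1 probe sets disagreed, with log2 -0.71 for the brightest, 0.70 for the next (25.8 in d/d and 15.8 in f/f) and at least 1.40-fold lower for the dimmest. Col8a2 read 75 in d/d heart against 12.6 in f/f heart, 5.96-fold higher and rank 24, and 19.2 in d/d muscle against 17.4 in f/f muscle (log2 0.14). Its muscle arrays differed by less than the probe-to-probe SD.

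Type VI collagen forms beaded filaments around muscle fibres, and inherited defects of its chains cause muscular dystrophies. Col6a1 gave 515 in d/d heart against 269 in f/f heart (log2 0.93), and 221 in d/d muscle against 346 in f/f muscle (log2 -0.64). Col6a2 gave 576 in d/d heart against 312 in f/f heart (log2 0.89), and 261 in d/d muscle against 398 in f/f muscle (log2 -0.61). A second Col6a2 probe set gave log2 0.47 in heart and -0.54 in muscle. Col6a3 gave 214 in d/d heart against 165 in f/f heart (log2 0.38), and 224 in d/d muscle against 319 in f/f muscle (log2 -0.51), a heart difference smaller than the probe-to-probe SD. None of the 3 reached 2-fold.

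The FACIT collagens sit on the surface of fibrils and have interrupted helices. Col12a1, found in dense connective tissue such as tendon, read 84.8 in d/d heart and 1.19, below the floor, in f/f heart, at least 11.3-fold higher, and 43.7 in d/d muscle against 53.4 in f/f muscle (log2 -0.29). A second Col12a1 probe set above the floor on all arrays gave 15.7 in d/d heart against 10.6 in f/f heart, 1.48-fold higher, so the size of the Col12a1 difference rests on 1 probe set while its direction does not; the remaining Col12a1 probe sets were at the floor. Col14a1 gave 270 in d/d heart against 104 in f/f heart, 2.59-fold higher, and 36.3 in d/d muscle against 52.0 in f/f muscle (log2 -0.52). Its second probe set gave log2 1.41 in heart and -0.97 in muscle. Col16a1 gave 58.8 in d/d heart against 25.0 in f/f heart, 2.35-fold higher, and 20.1 in d/d muscle against 43.1 in f/f muscle, 2.14-fold lower. With Col1a1 and Col1a2 it was, by representing probe sets, 1 of 3 genes past 2-fold in opposite directions in the tissues. The share of all genes with that pattern was not computed. Col16a1 has a single probe set, of a kind that can match other transcripts. Second probe sets of Col3a1, Col5a2 and, as bounds, Col11a1 also passed 2-fold both ways, while that of Col1a1 did not.

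Col20a1 gave 20.8 in d/d heart against 37.7 in f/f heart (log2 -0.86), and 32.2 in d/d muscle against 29.9 in f/f muscle. Col22a1, whose protein lies at tissue junctions such as that of muscle and tendon, gave 19.2 in d/d heart against 14.7 in f/f heart, and 23.9 in d/d muscle against 15.0 in f/f muscle (log2 0.67). In heart all 3 Col22a1 probe sets were above 0, the other 2 as bounds. In muscle those 2 went the other way, at 17.5 in d/d and 32.6 in f/f (log2 -0.90) and at 14.5 in d/d and 44.0 in f/f (3.03-fold lower), so no direction is given for Col22a1 in muscle. For Col9a1, a cartilage FACIT, the representing probe set was under the floor in both hearts, at 0.972 in d/d and 6.89 in f/f, and read 21.1 in d/d muscle against 16 in f/f muscle (log2 0.40). A second Col9a1 probe set passed the floor in heart, at 10.1 in d/d and 12.2 in f/f (log2 -0.27), and read 9.52 in d/d muscle against 5.38 in f/f muscle.

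Of the transmembrane and anchoring types, Col25a1 read 2.56, under the floor, in d/d muscle against 20.2 in f/f muscle, at least 2.68-fold lower, and was under the floor in both hearts, at 4.24 in d/d and 3.66 in f/f. Its protein is a membrane collagen that motor innervation of muscle depends on in mice. Col23a1, another membrane collagen, passed the floor narrowly, at 4.33 in d/d heart against 8.50 in f/f heart, and at 9.89 in d/d muscle against 1.26 in f/f muscle. Col7a1, which forms the anchoring fibrils of skin, read 7.16 in d/d heart against 12.7 in f/f heart, and 13.4 in d/d muscle against 11.7 in f/f muscle. The signals of these genes lay near the floor. The 10 genes not given by value are Col6a4, Col6a5, Col9a2, Col9a3, Col10a1, Col13a1, Col17a1, Col19a1, Col24a1 and Col26a1. For 5 of them all arrays were under the floor and for 5 a single array was above it, and no signal of their representing probe sets exceeded 13.4.

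Over the collagen genes with several measured probe sets, another probe set had the opposite direction for 1 of 20 genes in heart and for 5 of 21 in muscle. At the level of probe sets, 45 of 59 measured ones were above 0 in heart and 45 of 63 below 0 in muscle. Probe sets of the same gene are not independent of each other. The matching shares over all genes and all probe sets were not computed. Of the 82 probe sets, 17 are of a kind that can match more than 1 transcript.

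Set side by side, 30 genes were measured in both tissues. Of these, 19 were higher in d/d heart and lower in d/d muscle, at any size, a pattern held by 24.1% of all 12711 genes measured in both, 4 were lower in d/d heart and higher in d/d muscle, 5 were higher in both and 2 lower in both. The heart difference minus the muscle difference had a median of 1.28, was above 0 for 24 of the 30 genes, against 48.0% of all genes, and at least 1 on the log2 scale for 21, against 8.49% of all genes. By class its median was 1.60 for 10 fibrillar, 1.13 for 8 basement membrane and 1.54 for 12 other genes. The genes higher in both tissues were Col4a3, Col8a2, Col27a1 and, by their representing probe sets, Col4a6 and Col22a1, and those lower in both were Col5a3 and Col4a5. The difference between the tissues could not be tested with 1 array per group.

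**Figure D3:**
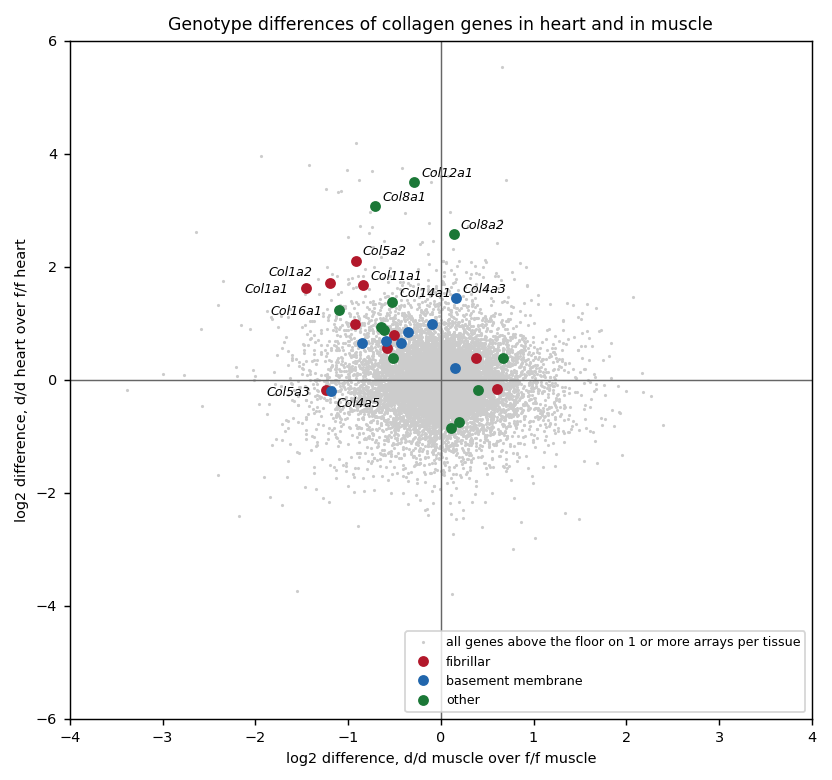
Log2 difference between d/d and f/f in heart (vertical) against that in muscle (horizontal) for 30 collagen genes, coloured by class, over 12711 genes measured in both tissues in grey. Of the collagen genes, 19 lie in the upper left part of the plot, higher in d/d heart and lower in d/d muscle, with Col12a1 and Col8a1 highest and Col1a1 farthest left.

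Comparing heart with muscle within a genotype gave different pictures. In f/f mice, 5 of 36 measured collagen genes were at least 2-fold higher in heart than in muscle, where 12.1% of all genes were, and 6 were at least 2-fold lower, where 8.3% were. The 5 were Col4a2, Col4a4, Col4a5, Col14a1 and Col27a1, and the lower ones included Col1a1 (log2 -2.11), Col1a2 (log2 -2.07) and, as bounds, Col11a1 and Col12a1. The median was -0.28, against 0.08 over all genes, but 0.15 against 0.47 when the deposited values were used with no scaling, which moves all genes between the tissues by 0.40. In f/f mice the type IV genes had a median of 0.78, above 0 under each scaling, while the fibrillar median of -0.42 came to 0.01 and the median of other types, -0.38, came to 0.02 with no scaling. In d/d mice, 17 of 32 measured genes were at least 2-fold higher in heart than in muscle, where 15.1% of all genes were, and 1, Col9a1, was at least 2-fold lower, where 10.5% were; the second Col9a1 probe set gave log2 0.08 in the other direction. The median was 1.08, against 0.01 over all genes, with 0.82 for fibrillar, 1.88 for basement membrane and 0.96 for other types. Of the 8 basement membrane genes 7 had at least 2-fold higher signals in d/d heart than in d/d muscle, the exception being Col4a6, and Col8a1 had the largest difference of any collagen gene, 22.4-fold. The comparisons within a genotype and those within a tissue use the same 4 arrays, so they are different views of the same values.

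The proteins that finish collagen were read from 4 lists. The first holds enzymes and chaperones that modify and fold procollagen in the endoplasmic reticulum, and also Sparc. In heart 3 of its 19 measured genes were at least 2-fold higher, where 3.94% of all genes were, and 0 lower. The median was 0.18, with 15 genes above 0. The 3 were P3h2, a prolyl 3-hydroxylase, at 55.6 in d/d heart against 16.7 in f/f heart (3.34-fold), P3h3, of the same family, at 57.3 and 22.4 in d/d and f/f heart (2.56-fold), and Sparc, a collagen-binding matrix protein, at 2063 and 986 in d/d and f/f heart (2.09-fold). P4ha1, a subunit of the prolyl 4-hydroxylase needed for a stable helix, gave log2 0.47, and Serpinh1, the collagen chaperone HSP47, gave 0.22. In muscle 1 of 18 measured genes was at least 2-fold lower, P3h2 with 3.78 in d/d and 38.3 in f/f (at least 5.09-fold), 0 were higher, and the median was -0.27.

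Genes for trimming and cross-linking differed more. Of 9 measured genes, 4 had at least 2-fold higher signals in d/d heart, 0 were lower and the median was 0.98. Lox, lysyl oxidase, which cross-links collagen and elastin, read 196 in d/d heart against 16.9 in f/f heart, 11.6-fold higher, and 69.7 in d/d muscle against 128 in f/f muscle (log2 -0.88). Its relatives Loxl3, at 133 in d/d heart against 31.0 in f/f heart (4.30-fold), and Loxl1, at 805 and 319 in d/d and f/f heart (2.53-fold), were also higher, as was Pcolce, which enhances removal of the procollagen C-propeptide, at 1286 and 596 in d/d and f/f heart (2.16-fold). In muscle none of the 9 measured genes of this list reached 2-fold, and the median was -0.59.

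Of 12 measured genes for collagen breakdown and its inhibitors, 6 had at least 2-fold higher signals in d/d heart and 0 lower, with a median of 1.02. They included proteases and inhibitors of them. Timp1, an inhibitor of metalloproteinases, read 193 in d/d heart against 19.2 in f/f heart, 10-fold higher, and 8.18 in d/d muscle against 17.6 in f/f muscle, 2.16-fold lower. The stromelysin gene Mmp3 read 48.3 in d/d heart against 12.6 in f/f heart (3.84-fold), and Mmp2, a gelatinase gene, 385 and 185 in d/d and f/f heart (2.08-fold). Ctsk, encoding the collagen-degrading protease cathepsin K, was 2.19-fold higher in d/d heart and 2.19-fold lower in d/d muscle, at 77.1 and 35.1 in d/d and f/f heart and 30.6 and 67.0 in d/d and f/f muscle. Fap and Timp3 were the others past 2-fold in heart. In muscle 3 of 12 genes were at least 2-fold lower, Timp1, Ctsk and Mmp13, 0 were higher and the median was -0.36. Of 7 measured collagen receptor genes, 1 was at least 2-fold higher in d/d heart, the integrin gene Itga1 at 149 in d/d and 68.0 in f/f, and the median was 0.09; in muscle 0 of 6 reached 2-fold and the median was -0.20. Among all genes the same 2-fold shares are those given above for each tissue.

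**Figure D4:**
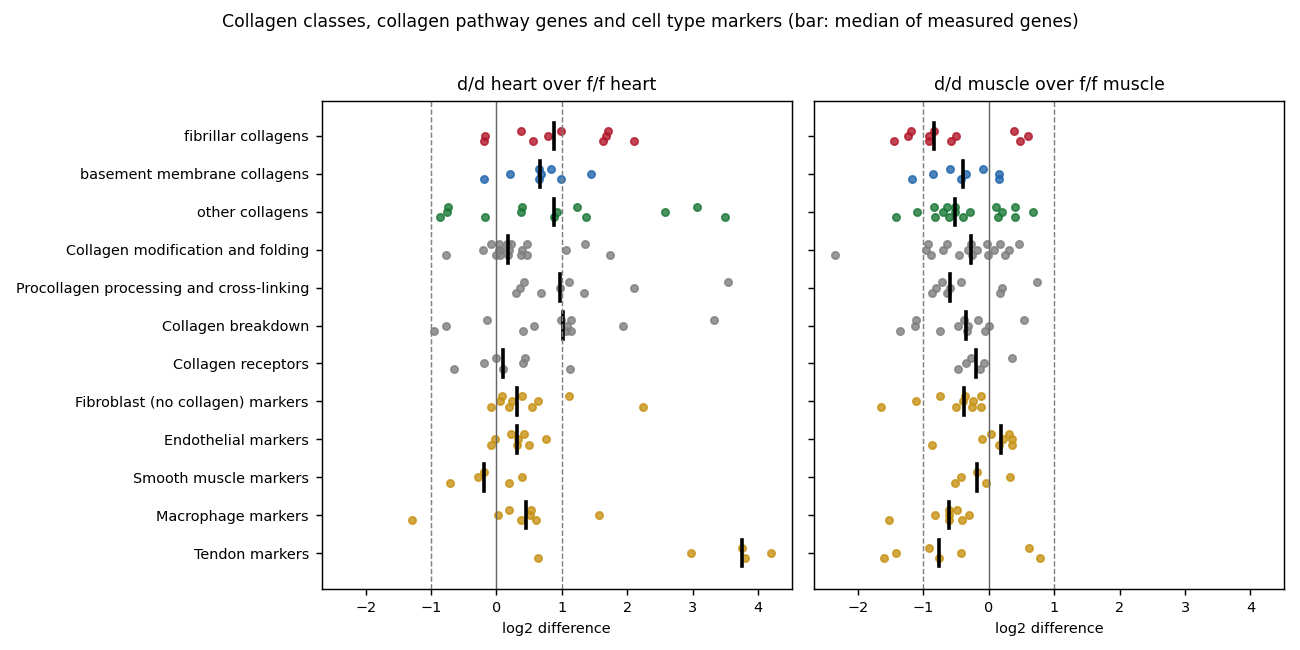
Log2 difference between d/d and f/f of each measured gene in the 3 collagen classes, the 4 lists of collagen-handling genes and 5 lists of cell type markers, in heart (left) and in muscle (right), 1 point per gene, with the median as a bar and 2-fold as dashed lines. In heart the medians of the breakdown list (1.02) and the cross-linking list (0.98) stand near those of the collagen classes, and the tendon list (3.75) far above them.

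Of the cell type lists, the fibroblast, tendon and macrophage markers had medians above 0 in heart and below 0 in muscle, as the collagen genes did. The other lists did not have both directions. Of 10 fibroblast markers that are not collagens, 9 were above 0 in heart, with a median of 0.32 and a summed signal of 12412 in d/d heart against 8980 in f/f heart, and 2 were at least 2-fold higher, Mfap5 and Pi16. In muscle all 10 were below 0, with a median of -0.38 and a sum of 5922 in d/d against 7568 in f/f; Tcf21 was at the floor in d/d muscle, and no other of these markers was at the floor on any array. Of the tendon markers 5 of 7 were measured in heart, 4 of them were at least 2-fold higher (Comp, Tnmd, Thbs4 and Fmod), and the sum was 2226 in d/d heart against 187 in f/f heart. Tnmd was at 105 in d/d heart and at the floor in f/f heart, and Kera and Mkx, also on the list, were at the floor in both hearts. In muscle the tendon median was -0.76 and the sum 1522 in d/d against 2531 in f/f. Of the 7 markers 5 were below 0 there, while Scx (log2 0.62) and Mkx (at least 1.72-fold) were higher in d/d muscle. The part of the fibroblast and tendon markers in the collagen differences was not tested.

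Macrophage markers summed to 2494 in d/d heart against 1932 in f/f heart (median log2 0.45, 7 of 8 above 0) and to 766 in d/d muscle against 1198 in f/f muscle (median -0.61, all 8 below 0). The exception in heart was Cd163, 2.46-fold lower in d/d heart and 2.88-fold lower in d/d muscle. Endothelial markers had medians of 0.32 in heart and 0.18 in muscle, with sums of 2247 and 1770 in d/d and f/f heart and of 1054 and 980 in d/d and f/f muscle. Smooth muscle markers had medians of -0.19 in heart and -0.18 in muscle, cartilage markers -0.21 and 0.43 over 3 measured genes, Schwann cell markers -0.48 and 0.54 over 3, and adipocyte markers -1.17 and -0.50 over 2. No macrophage, endothelial or smooth muscle marker was at the floor on any array. The part of these markers in the collagen differences was not tested.

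The arrays matched their tissue labels. Cardiac markers summed to 37995 and 37730 in d/d and f/f heart and to 2427 and 2880 in d/d and f/f muscle, and skeletal muscle markers to 45.2 and 117 in d/d and f/f heart and to 68048 and 62702 in d/d and f/f muscle. In muscle 5 of 6 measured cardiac markers were at least 2-fold lower in d/d, where 3.25% of all measured genes were. Tnni3 read 8.30 in d/d muscle against 86.8 in f/f muscle, and Nppa 34.8 against 144. The f/f muscle array, which the muscle differences are taken against, thus held more cardiac transcripts. The part of this in the muscle differences was not tested. Sod2 was lower in d/d on 4 of 4 probe sets in heart (log2 -1.22 to -0.21) and on 3 of 4 in muscle (log2 -0.44 to 0.06), and which exons the probe sets cover was not examined here. The arrays had 58.0% to 61.1% of probe sets above the floor, and the ratio of the 3′ to the 5′ Gapdh control was between 0.847 and 0.899. For the beta-actin control this ratio was 1.37 and 1.40 in d/d and f/f heart and 1.11 on both muscle arrays. The part of that in the comparisons of heart with muscle was not tested. The 18S ribosomal RNA control read 57.5 at its 3′ probe set in f/f heart and between 102 and 105 on the other arrays, so f/f heart, the array the heart differences are taken against, stands apart in this control. Its part in the heart differences was not tested.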

How the data were processed

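Total RNA of heart and muscle from d/d and f/f mice was measured on 4 oligonucleotide arrays, 1 per group, with genotype read from each title and tissue from the source label. The authors deposited a linear intensity for every probe set on every array. The scanning and summary steps behind it are not given in the sources used here. Among the 45101 probe sets of the file, 64 are controls and were left out. The 2% trimmed means of the deposited intensity values were 66.6 and 69.2 for d/d and f/f heart and 48.2 and 51.4 for d/d and f/f muscle, so each array was scaled to their mean. Signals under a floor of 7.51, the mean over arrays of the 40th percentile, were set to it before log2 was taken. Of the other probe sets, 34945 have 1 symbol in the platform annotation, 932 have several and 9160 are unlisted and unnamed here.

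A count of genes past 2-fold in 1 comparison, under the reported processing, is read beside the same share over all measured genes. No test was made, since each group has 1 array, and the number of arrays limits the precision. A collagen gene is given by value when its representing probe set is above the floor on at least 2 arrays or it differs at least 2-fold between genotypes in heart or muscle; genes of the lists are named where they differ at least 2-fold or a result turns on them. The list genes P4ha1 and Serpinh1, under 2-fold, were named after their values were seen. The collagen genes, their classes and the lists were chosen with earlier results of these data known. Alternatives changed the scaling, the floor, the fold, the probe set used and the probe sets that can share sequence. The scripts were tested on simulated data. Python 3.11.15 was used with numpy 2.4.6, pandas 2.3.3, scipy 1.17.1 and matplotlib 3.10.9. Promoters come from a RefSeq table of build GRCm38.p6.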

Additional observations from a re-analysis of the deposited data

Results flagged for a closer look

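These results stand out because the d/d array lay on one side of the f/f array in heart and on the other side in muscle; with 1 array per group the difference between the tissues was not tested. Taken as the median in heart minus the median in muscle, on the log2 scale, it was 1.30 for the collagen genes measured in each tissue, 1.73 for the fibrillar, 1.05 for the basement membrane and 1.40 for the other types. Of single genes at least 2-fold higher in d/d heart and below 0 in muscle, the heart difference minus the muscle difference was 3.07 for Col1a1, 2.89 for Col1a2, 3.02 for Col5a2, 3.78 for Col8a1, 1.89 for Col14a1 and 2.33 for Col16a1. It was 2.51 for Col11a1 and 3.79 for Col12a1, both with f/f heart at the floor. These values are those of the representing probe sets: a second Col1a1 probe set gave 0.88, the next Col8a1 probe set, higher in d/d muscle, 2.25, and a second Col12a1 probe set, above the floor on all arrays, 1.01. The medians of the fibroblast, tendon and macrophage markers had the same opposite directions, and their part was not tested. Not every marker did: Scx was above 0 in heart and muscle (log2 0.64 and 0.62). Cd163 (-1.30 and -1.53) and Dpt (-0.08 and -0.75) were below 0 in both.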

How the results depend on the processing

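Of 172 values of collagen counts and medians under the alternatives, 148 stayed close to the reported value, 23 moved and 1 changed sign. A count was called close when equal or within 1.5-fold. A median was called close when it shifted by less than the probe-to-probe SD, which was 0.39 to 0.56 for the single comparisons. A median could thus lose much of its size and still be called close. The sign change was the median of f/f heart over f/f muscle, 0.15 with no scaling. Of single genes, 17 of 231 values in heart and 21 of 243 in muscle moved by at least the probe-to-probe SD. Genes reported as at least 2-fold were among them: Col11a1 and Col12a1 in heart, and Col25a1 in muscle. The last, reported at -1.42, ran from -2.98 to -0.09. Sign changes, all for genes under 2-fold as reported, were seen in 1 of 231 values in heart and 7 of 243 in muscle. With the median over probe sets Col4a6 came to -0.09 in heart, and in muscle Col8a1 came to 0.70, Col18a1 to 0.06, Col20a1 to -0.13 and Col22a1 to -0.90. The others, in muscle, were Col22a1 at -1.21 with the higher floor, Col23a1 at -0.37 with the lower one and Col20a1 at -0.03 without probe sets that can share sequence. For the alternatives the share of all genes past the same cut was not computed, so their counts have no such share beside them. Lowering the fold to 1.5 gave 19 genes higher and 3 lower in d/d heart, and 2 higher and 16 lower in d/d muscle. Between the tissues it gave 10 lower in f/f heart than f/f muscle, and 3 lower in d/d heart than d/d muscle. Raising it to 3 left 0 lower in d/d muscle, and between heart and muscle 10 higher and 0 lower in d/d and 3 higher in f/f. With the floor at the 20th percentile, 4 genes were lower in d/d heart, 2 higher in d/d muscle, 8 higher in f/f heart than f/f muscle and 4 lower in d/d heart than d/d muscle, and the median of other types came to 0.30 in heart and -0.090 in muscle. For genes lower in d/d heart than d/d muscle, the 60th percentile floor and the median over probe sets each gave 0. An offset of 16 in place of the floor left 2 lower in d/d muscle and 2 higher in f/f heart than f/f muscle, and scaling to the 75th percentile left 3 of the last. Without probe sets that can share sequence, the heart median was 1.37 for fibrillar and 0.38 for other types. The restriction to genes above the floor on both arrays was chosen after seeing the data. No paired analysis was possible because each group has 1 array. Signals near the floor limit the dim genes: for Col2a1, Col7a1, Col9a1, Col23a1, Col25a1 and Col27a1 at least 1 array was under it, and their folds depend on it. The same holds for Col11a1 and Col12a1, whose f/f heart signals were under the floor. Over the settings used, the log2 heart difference ran from 0.34 to 3.48 for Col11a1 and from 0.53 to 5.30 for Col12a1.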
